A study of Mus musculus with 6 samples.

Results

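N-linked glycosylation attaches a preassembled sugar chain to asparagine residues of proteins entering the endoplasmic reticulum (ER). The 39 genes described here were taken by pathway membership, with earlier results of these data known. They supply the sugar donors GDP-mannose and UDP-GlcNAc, build the chain on the lipid carrier dolichol, transfer it to protein through oligosaccharyltransferase (OST), and trim its glucoses. The cytosolic steps use nucleotide sugars, whereas the lumenal mannoses come from dolichol-phosphate-mannose. 2-deoxy-D-glucose (2DG) is an analogue of both glucose and mannose, and is known to be able to enter this pathway in place of mannose. Many receptors and adhesion molecules of T cells are N-glycoproteins.

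Gene expression was measured by bulk RNA-seq in CD8+ T cells isolated from mouse spleen on day 35, with 3 samples per group. MWA+PBS mice had their tumor destroyed by microwave ablation (MWA) and received the PBS vehicle, and MWA+2DG mice had the same ablation and received 2DG. All mice of both groups therefore had an ablated tumor, and no group without ablation or without a tumor was analysed here. The study used female mice, and its 2DG injections ended before day 35, so the samples were taken after dosing had stopped. The labels give neither the strain, the age and the tumor line of these samples nor whether each sample was 1 mouse, so p-values measure only the spread between these samples. The MWA+PBS replicates carry the numbers 1 to 3 and the MWA+2DG replicates 4 to 6. Values are FPKM (a fragment count divided by transcript length and by the library total), in which levels of different genes can be compared per length.

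All 39 genes were found among the 28773 gene IDs, and 38 of them were among the 12444 genes tested, whose FPKM averaged at least 1 over the 6 samples. Alg6, which adds the first glucose to the lipid-linked chain, was below that filter. Total FPKM was 291803 to 313257 per sample, and 12198 to 12515 genes reached an FPKM of 1. The mitochondrial share of FPKM was 21.4 to 22.8% in MWA+PBS versus 19.4 to 20.7% in MWA+2DG. The files hold no read counts, so sequencing depth is unknown.

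The CD8+ T cell identity was checked on 12 T lineage markers, Cd8a, Cd8b1 and Cd3e among them, none of which was listed at 0. All 12 were higher in MWA+2DG, and their summed FPKM was 1341.8 to 1408.33 in MWA+PBS versus 1884.36 to 2014.22 in MWA+2DG. Markers of other cells differed too. The 12 monocyte and macrophage markers were all lower (sum 594.74 to 650.73 against 91.49 to 99.78), as were the 10 erythroid markers (297.05 to 352.99 against 67.9 to 85.74). The 11 neutrophil markers were all higher (57.38 to 84.11 against 1586.2 to 1766.11), and so were the 9 B cell markers tested of 10 (10.64 to 11.85 against 58.42 to 63.62). Of 9 plasma cell markers, 6 were tested, 2 of them rose and 2 fell (87.23 to 95.8 against 53.42 to 56.99). Of 4 CD4 T cell markers, 3 were tested and 2 fell (8.96 to 9.72 against 6.45 to 7.03). None of these markers was listed at 0 in all 6 samples. In bulk RNA, fewer cells of a type and less RNA per cell cannot be told apart, and the part of these other cells in the results below was not tested.

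At a limma adjusted p under 0.05 for the log2 fold change (log2FC, MWA+2DG minus MWA+PBS, of FPKM + 1), 15 of the 38 tested members passed, or 39.5%, against 39.4% of all tested genes. Of these, 10 were higher in MWA+2DG (26.3%, against 22.3% of all genes) and 5 were lower (13.2%, against 17.1%). The study's own rule, an absolute log2FC above 0.25 at P under 0.05, was met by 11 of the 38 members (28.9%), 8 higher and 3 lower, against 38.2% of all genes. The groups did not overlap for 22 of the 39 members, 13 with all MWA+2DG samples above and 9 with all below, where 52.1% of all tested genes did not overlap. The median log2FC was 0.06 over the members and 0.05 over all tested genes, and the summed FPKM of the 39 genes overlapped between the groups (419.82 to 434.87 in MWA+PBS, 417.96 to 430.28 in MWA+2DG). The 15 calls fell to 8 without MWA+PBS replicate 1, to 9 without MWA+PBS replicate 3 and to 6 without MWA+2DG replicate 4.

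The 10 higher members were Pmm2 of GDP-mannose supply, Dpm1, Dpm2, Dpm3 and Mpdu1 of dolichol-phosphate-mannose, the mannosyltransferases Alg2, Alg11 and Alg12, the OST subunit Tusc3, and Ganab of glucosidase II. The 5 lower members were Dpagt1, which starts the chain, and the OST subunits Stt3b, Rpn1, Rpn2 and Ddost. The split of 10 higher and 5 lower changed with the setting: it was 8 and 7 after quantile normalization, 6 and 7 after median ratio scaling, 6 and 6 with no filter on low values, 5 and 5 without MWA+2DG replicate 6, and 0 and 26 when FPKM was scaled to the T lineage markers, which were 0.47 higher in MWA+2DG on the log2 scale. That scaling moved the median log2FC of all genes to -0.35. There, each of the 10 higher members had a negative log2FC, from -0.32 (Ganab) to -0.000653 (Dpm1), and each of the 5 lower members stayed negative. Relative to the median of all genes, the 10 higher members lay above it by 0.04 to 0.35 and the 5 lower members below it, at -0.44 to -0.28, on that scale. Their sides of that median follow largely from how the calls were made and are given as a description.

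**Figure D1:**
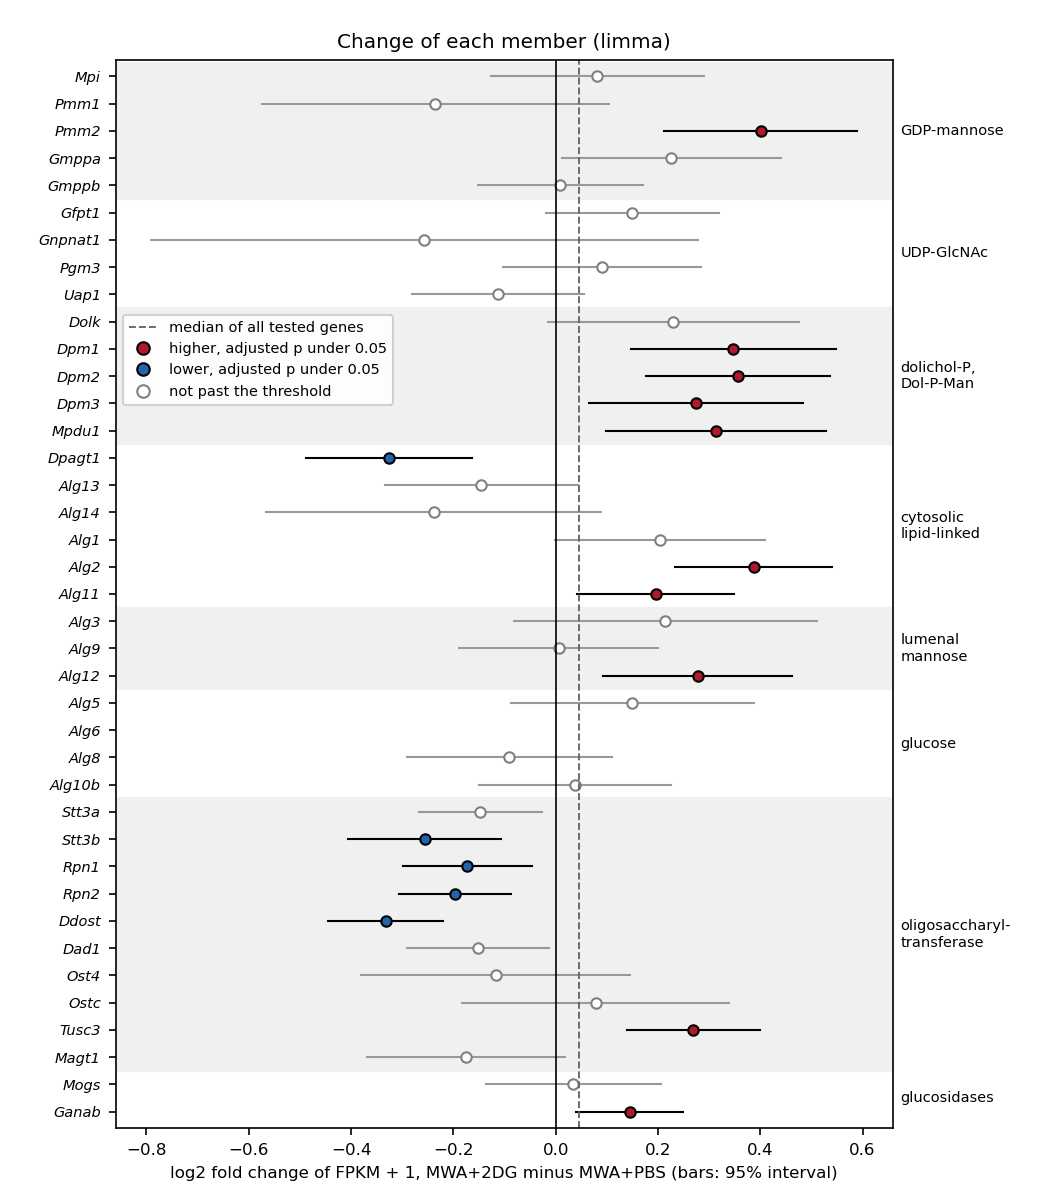
Log2 fold change of FPKM + 1 for the 38 tested members (horizontal axis, MWA+2DG minus MWA+PBS; bars are 95% intervals), grouped by step, with filled points for an adjusted p under 0.05. The 10 red points (higher) lie mostly in the dolichol-phosphate-mannose and mannosyltransferase steps, and 4 of the 5 blue points (lower) are OST subunits. The higher calls are on the deposited FPKM scale and none held with T lineage scaling.

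Promoter sequences are shown for 4 members whose values are given below: Pmm2 and Ddost, the members with the highest and lowest log2FC of FPKM + 1, Stt3b, another OST subunit that fell, and Alg12, the only one of the 32 members with a RefSeq promoter to hold the full ER stress response element. Each is the 250 bases before the gene's start in RefSeq on GRCm38.p6, at chr16:8637457-8637706 (plus strand) for Pmm2, chr4:138304488-138304737 (plus) for Ddost, chr9:115310469-115310718 (minus) for Stt3b and chr15:88819319-88819568 (minus) for Alg12. Capitals mark the letters CCAAT and CCACG, or their reverse complements, the parts of that element.
Pmm2: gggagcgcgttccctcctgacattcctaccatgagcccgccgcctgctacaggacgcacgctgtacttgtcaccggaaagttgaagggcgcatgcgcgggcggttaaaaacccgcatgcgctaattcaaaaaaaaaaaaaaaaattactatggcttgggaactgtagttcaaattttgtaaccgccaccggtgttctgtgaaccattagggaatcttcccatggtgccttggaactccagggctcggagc
Ddost: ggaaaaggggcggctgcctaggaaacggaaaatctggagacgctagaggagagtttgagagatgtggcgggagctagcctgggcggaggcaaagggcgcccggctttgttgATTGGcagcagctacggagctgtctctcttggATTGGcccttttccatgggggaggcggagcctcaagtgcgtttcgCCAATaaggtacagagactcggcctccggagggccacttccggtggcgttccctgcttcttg
Stt3b: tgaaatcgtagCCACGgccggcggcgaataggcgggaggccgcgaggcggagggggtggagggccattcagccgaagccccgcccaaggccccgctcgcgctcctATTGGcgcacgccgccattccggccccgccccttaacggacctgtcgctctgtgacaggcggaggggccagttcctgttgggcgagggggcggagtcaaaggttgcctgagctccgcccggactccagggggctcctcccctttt
Alg12: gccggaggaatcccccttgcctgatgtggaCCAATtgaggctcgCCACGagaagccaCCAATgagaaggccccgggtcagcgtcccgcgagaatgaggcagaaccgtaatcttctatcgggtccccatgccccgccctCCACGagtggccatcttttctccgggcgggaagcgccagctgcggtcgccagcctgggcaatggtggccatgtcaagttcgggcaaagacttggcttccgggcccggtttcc

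The ER stress response element, through which ER chaperone genes are known to be induced, is CCAAT followed by CCACG after 9 bases, so it contains both parts. On both strands it was in 0.113% of 32851 promoters, and in 1 of the 32 members with a RefSeq promoter, Alg12. The CCAAT part was in 33.8% of promoters and in 16 members, the CCACG part in 28.3% and in 12 members, and both parts in 9.26% and in 6 members (Alg12, Gfpt1, Rpn1, Stt3a, Stt3b and Uap1). These are letter matches and not measured sites. Of the promoters printed for lower members, that of Ddost held CCAAT 3 times and that of Stt3b each part 1 time. Of those printed for higher members, Pmm2 held neither part and Alg12 each part 2 times. Of the other higher members, Dpm1 held CCAAT 1 time and Ganab 2 times, while Dpm2, Dpm3 and Mpdu1 held neither. Of the other lower members, Rpn1 held each part 1 time, and 1 Rpn2 promoter held CCAAT 3 times while another held neither. A difference between higher and lower members was not tested.

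GDP-mannose is made from mannose 6-phosphate. Of the 5 genes of this step, 1 passed the threshold, as higher (20%, against 22.3% of all tested genes). With T lineage scaling none was higher and 4 were lower. Pmm2 (ENSMUSG00000022711), the main phosphomannomutase, which turns mannose 6-phosphate into mannose 1-phosphate, had FPKM of 10.45, 11.70 and 9.88 in MWA+PBS versus 14.20, 13.43 and 15.60 in MWA+2DG. Every MWA+2DG sample was above every MWA+PBS sample, and the log2FC was 0.40 ± 0.08 (SE, limma adjusted p = 0.00673, n = 3 per group), but with T lineage scaling the call was lost and the log2FC was -0.0357. Its exons share 39 bases with Tmem186 on the other strand, whose log2FC was 0.61 (limma adjusted p = 0.000313). The paralog Pmm1 had a log2FC of -0.24 ± 0.15 (limma adjusted p = 0.236), with values of 1.57 to 2.49 and 1.27 to 1.86. The ratio of Pmm2 to Pmm1 within a sample was 5.35 ± 1.85 in MWA+PBS versus 9.19 ± 2.71 in MWA+2DG (SD), but overlapped between groups (exact permutation p = 0.2, two-sided; the smallest p possible is 0.1).

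Mpi, which exchanges fructose 6-phosphate and mannose 6-phosphate, was at 2.04 to 2.48 and 2.21 to 2.54 FPKM (log2FC 0.08, limma adjusted p = 0.501). Gmppa, the regulatory subunit of GDP-mannose pyrophosphorylase, was higher in all MWA+2DG samples (11.44 to 14.76 against 10.34 to 11.41) but missed the threshold (0.23, limma adjusted p = 0.0882). Its catalytic partner Gmppb was at 3.41 to 3.70 and 3.39 to 3.70 (0.01, limma adjusted p = 0.928), and its exons share 937 bases with Rnf123 on the other strand.

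None of the 4 genes that supply UDP-GlcNAc passed the adjusted threshold, although 3 were called lower with T lineage scaling, and their summed FPKM was 17.87 to 18.64 in MWA+PBS versus 17.87 to 18.56 in MWA+2DG. Gfpt1, the rate-limiting enzyme of the hexosamine pathway, was at 6.58 to 6.91 and 7.08 to 8.41 (log2FC 0.15, limma adjusted p = 0.142), with no overlap. Uap1, which makes UDP-GlcNAc in the last step, was at 7.49 to 7.76 and 6.31 to 7.41 (-0.11, limma adjusted p = 0.255), also with no overlap but in the other direction. Pgm3 was at 2.19 to 2.51 and 2.41 to 2.73 (0.09, limma adjusted p = 0.421). Gnpnat1, the acetyltransferase of the pathway, had the largest SE of the tested members, with FPKM of 1.20, 0.69 and 2.34 in MWA+PBS versus 1.04, 0.84 and 0.94 in MWA+2DG (-0.26 ± 0.23, limma adjusted p = 0.409). Gnpnat1 shares 3878 exon bases with Styx on the other strand and has a pseudogene identical to it over 98.6% of 556 bases, and Pgm3 shares 1270 bases with Dop1a. The log2FC of Styx was 0.52 (limma adjusted p = 0.00818) and that of Dop1a -0.02 (limma adjusted p = 0.834).

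**Figure D2:**
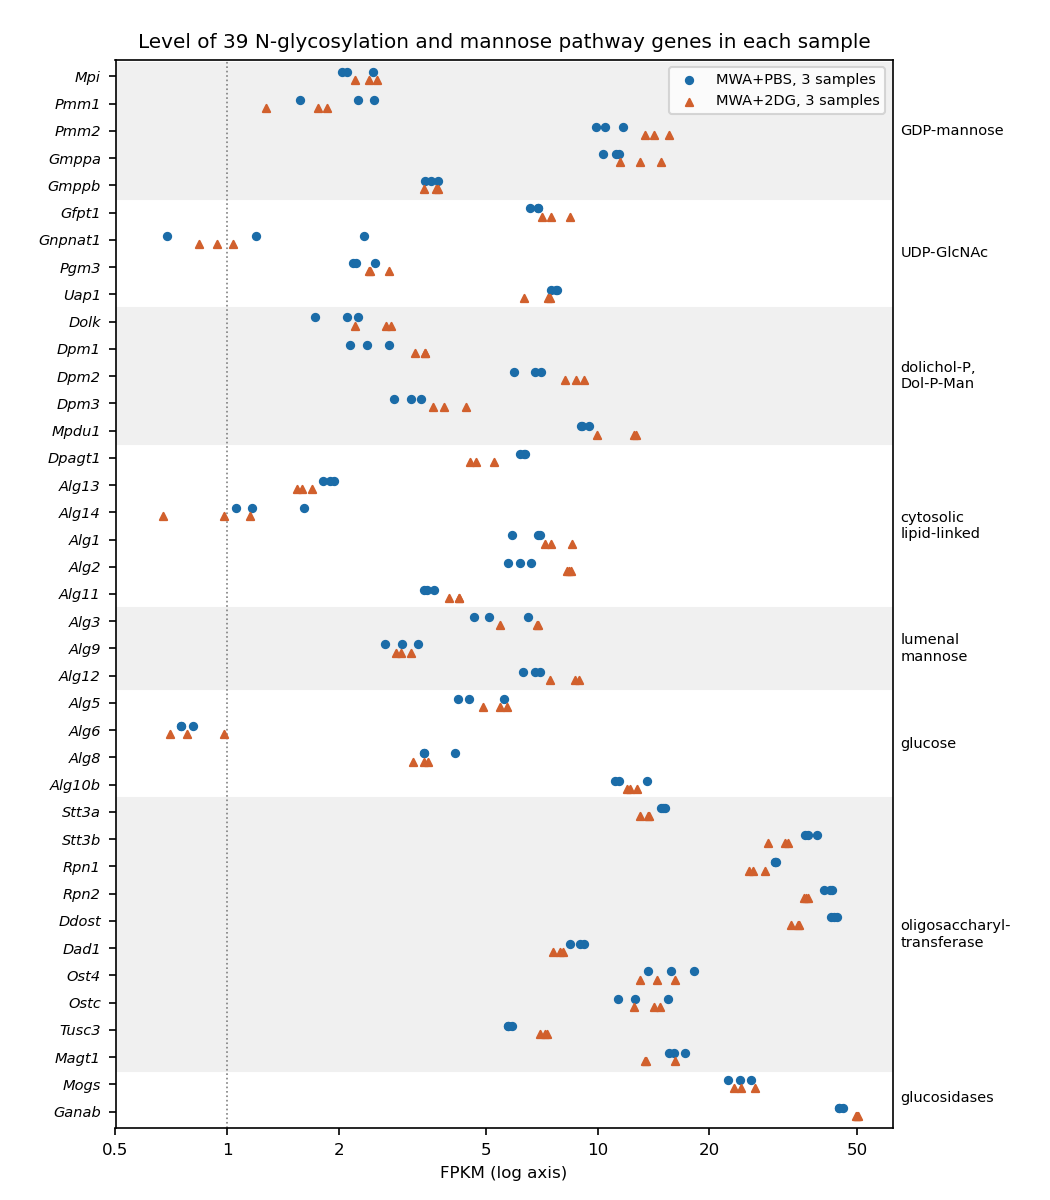
FPKM of all 39 members in each sample (log axis; circles MWA+PBS, triangles MWA+2DG; dotted line, the filter of 1 FPKM). By mean over all samples, levels run from Alg6, below 1 in each sample, to Ganab at 44.78 to 50.23. Single samples of Alg14 (0.67) and Gnpnat1 (0.69) lie below Alg6. The OST subunits Stt3b, Rpn1, Rpn2 and Ddost separate with MWA+2DG lower.

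All 5 genes of the dolichol-phosphate and dolichol-phosphate-mannose step had positive log2FCs (median 0.31). Of them, 4 were called higher (80%, against 22.3% of all tested genes). None of the 4 kept a higher call when FPKM was scaled to the T lineage markers. The summed FPKM of the 5 genes was 22.04 to 24.00 in MWA+PBS versus 27.62 to 31.94 in MWA+2DG. Dolichol-phosphate-mannose synthase has a catalytic subunit, Dpm1, and 2 membrane partners, Dpm2 and Dpm3, and all 3 rose.

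Dpm1 (ENSMUSG00000078919) had FPKM of 2.73, 2.39 and 2.15 in MWA+PBS versus 3.41, 3.21 and 3.42 in MWA+2DG, a log2FC of 0.35 ± 0.09 (SE, limma adjusted p = 0.0156). Dpm2 (ENSMUSG00000026810) was at 6.78, 7.02 and 5.94, and at 9.19, 8.17 and 8.74 (0.36 ± 0.08, limma adjusted p = 0.00893). The values of Dpm3 (ENSMUSG00000042737) were 2.82, 3.33 and 3.13, and 4.42, 3.60 and 3.85 (0.27 ± 0.09, limma adjusted p = 0.0442). For each subunit all MWA+2DG samples were above all MWA+PBS samples. Mpdu1 (ENSMUSG00000018761), which is needed for the use of dolichol-linked mannose and glucose, was at 9.45, 9 and 9.09, and at 12.71, 9.96 and 12.48 (0.31 ± 0.09, limma adjusted p = 0.0302). MWA+2DG replicate 5 was the lowest of its group but still above all MWA+PBS samples. Dolk, the dolichol kinase, was at 1.73 to 2.26 and 2.21 to 2.77 and overlapped (0.23, limma adjusted p = 0.121).

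The Dpm2 call held when any 1 sample was left out. The Dpm1 call was lost without MWA+2DG replicate 4 or 6, the Dpm3 call without MWA+PBS replicate 1 or 3 or MWA+2DG replicate 4 or 6, and of the 6 fits that left out 1 sample the Mpdu1 call held only in that without MWA+2DG replicate 5. With no filter on low values the Dpm3 and Mpdu1 calls were lost, and with median ratio scaling the Dpm3 call was lost, which left 3 of the 4 calls of this step. Dpm1 shares 895 exon bases on the same strand with Gm20716 (mean 14.48 and 13.39 FPKM), so reads could be split between them.

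On the cytosolic face of the ER, Dpagt1 starts the chain, Alg13 and Alg14 add the next GlcNAc, and Alg1, Alg2 and Alg11 add mannose from GDP-mannose. Of the GlcNAc enzymes 1 fell, and of the mannose enzymes 2 rose, while with T lineage scaling 4 of the 6 genes were lower and none was higher. On the deposited scale, 33.3% of the step's genes were called higher and 16.7% lower, against 22.3% and 17.1% of all tested genes. Dpagt1 (ENSMUSG00000032123), the target of tunicamycin, had FPKM of 6.38, 6.34 and 6.15 in MWA+PBS versus 4.68, 4.53 and 5.26 in MWA+2DG. All MWA+2DG samples were lower, and the log2FC was -0.33 ± 0.07 (SE, limma adjusted p = 0.00842), a call held in all 8 alternative settings and with any 1 sample left out. Alg13 was also lower in all MWA+2DG samples (1.81 to 1.94 against 1.54 to 1.69) but missed the threshold (-0.15, limma adjusted p = 0.191). Alg14 was at 1.06 to 1.61 and 0.67 to 1.15 (-0.24, limma adjusted p = 0.217).

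Alg2 (ENSMUSG00000039740) had FPKM of 6.15, 6.61 and 5.71 in MWA+PBS versus 8.46, 8.24 and 8.35 in MWA+2DG, a log2FC of 0.39 ± 0.07 (SE, limma adjusted p = 0.00307). Alg11 (ENSMUSG00000063362) was at 3.61, 3.45 and 3.39, and at 4.21, 4.23 and 3.96 (0.20 ± 0.07, limma adjusted p = 0.0492). Neither overlapped between groups. The Alg2 call held with any 1 sample left out but was lost with T lineage scaling (log2FC -0.0263), whereas the Alg11 call, at the edge of the threshold, was lost in each of those 6 fits and with no filter, quantile normalization, median ratio scaling or T lineage scaling. Alg1 was at 5.85 to 6.99 and 7.20 to 8.50, with no overlap (0.20, limma adjusted p = 0.105), and it shares 472 exon bases with Eef2kmt on the other strand.

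The lumenal mannosyltransferases Alg3, Alg9 and Alg12 take mannose from dolichol-phosphate-mannose, and 1 of the 3 passed, as higher (33.3%, against 22.3% of all tested genes). With quantile normalization or median ratio scaling none was called, and with T lineage scaling none was higher and 1 was lower. Alg12 (ENSMUSG00000035845) had FPKM of 6.27, 6.78 and 6.99 in MWA+PBS versus 8.87, 8.65 and 7.45 in MWA+2DG (0.28 ± 0.08, SE, limma adjusted p = 0.0273). The groups did not overlap, but the call was lost without MWA+PBS replicate 1 or without MWA+2DG replicate 4 or 5, and also with quantile normalization, median ratio scaling, T lineage scaling or no filter on low values. This is the gene whose promoter above holds the full ER stress response element. Alg3 was at 4.63 to 6.50 and 5.46 to 6.90 (0.21, limma adjusted p = 0.218), and Alg9 at 2.67 to 3.27 and 2.86 to 3.13 (0.01, limma adjusted p = 0.961). Alg3 shares 143 exon bases with Eef1akmt4 and Alg9 shares 500 with 1110032A03Rik.

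The glucosyltransferase step gave no call among its 3 tested genes, and no gene of it separated the groups, although all 3 were called lower with T lineage scaling. Alg5, which makes dolichol-phosphate-glucose, was at 4.20 to 5.57 and 4.91 to 5.70 FPKM (0.15, limma adjusted p = 0.281). Alg6 was listed at 0.75, 0.81 and 0.75 in MWA+PBS versus at 0.70, 0.98 and 0.78 in MWA+2DG. Alg8, which adds the next glucose, was at 3.40 to 4.13 and 3.17 to 3.48 (-0.09, limma adjusted p = 0.435). Alg10b, which adds the last glucose, was the most abundant of the step at 11.10 to 13.58 and 12.02 to 12.75 (0.04, limma adjusted p = 0.743).

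OST held 4 of the 5 lower calls. Of its 10 genes, 8 had negative log2FCs, 4 fell and 1 rose past the threshold, and the median was -0.16. The lower calls were 40% of its genes and the higher call 10%, against 17.1% and 22.3% of all tested genes. The count of lower OST genes was 6 after quantile and median ratio scaling and 9 with T lineage scaling, where none was higher. The summed FPKM of the 10 genes was 225.24 to 229.95 in MWA+PBS versus 198.46 to 201.72 in MWA+2DG. The 4 genes that fell were Stt3b, a catalytic subunit, and Rpn1, Rpn2 and Ddost, subunits common to both OST complexes. These are also the most abundant OST genes.

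Ddost (ENSMUSG00000028757) had the lowest log2FC of OST, going from 44.15, 42.60 and 43.45 FPKM in MWA+PBS to 34.97, 33.17 and 34.66 in MWA+2DG (-0.33 ± 0.05, SE, limma adjusted p = 0.0015). Stt3b (ENSMUSG00000032437) was at 36.81, 36.09 and 39.10, and at 28.82, 32.65 and 31.90 (-0.26 ± 0.06, limma adjusted p = 0.0164). Rpn2 (ENSMUSG00000027642) went from 42.17, 40.74 and 42.69 to 35.94, 36.49 and 36.80 (-0.20 ± 0.05, limma adjusted p = 0.0137). In all 3 genes every MWA+2DG sample was below every MWA+PBS sample. Rpn1 (ENSMUSG00000030062) was at 30.29, 30.12 and 29.97, and at 26.18, 25.56 and 28.18, again with no overlap (-0.17 ± 0.05, limma adjusted p = 0.0382). The Ddost call held in all 8 alternative settings and with any 1 sample left out. The Stt3b call was lost without MWA+PBS replicate 3 or MWA+2DG replicate 4, the Rpn2 call without MWA+PBS replicate 1 or MWA+2DG replicate 4, and the Rpn1 call held only when MWA+2DG replicate 6 was the sample left out, and was lost with eBayes without a trend. Rpn2 shares 242 exon bases with Mroh8 on the other strand.

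The other catalytic subunit, Stt3a, was lower in all MWA+2DG samples (14.82 to 15.15 against 12.99 to 13.70) and just missed the threshold (-0.15 ± 0.05, limma adjusted p = 0.0548). Dad1, a small common subunit, was also lower in all of them (8.41 to 9.15 against 7.58 to 8.07) at -0.15 (limma adjusted p = 0.0805). Stt3a passed in 5 of the alternative settings and Dad1 in 4. Ost4 (13.68 to 18.21 against 13.03 to 16.12) had a log2FC of -0.12 (limma adjusted p = 0.442) and shares 677 exon bases with Agbl5. Ostc, a subunit of the STT3A complex, was at 11.32 to 15.42 and 12.55 to 14.73 (0.08, limma adjusted p = 0.613).

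Tusc3 and Magt1 are alternative oxidoreductase subunits of the STT3B complex, of which Tusc3 rose and Magt1 did not pass the threshold. Tusc3 (ENSMUSG00000039530) had FPKM of 5.71, 5.73 and 5.87 in MWA+PBS versus 7.27, 6.99 and 7.22 in MWA+2DG (0.27 ± 0.06, SE, limma adjusted p = 0.00758). Its 3 samples per group were tightly placed and did not overlap, and the call held with any 1 sample left out, although the fold change was -0.14 when FPKM was scaled to the T lineage markers. Magt1, the more abundant of the pair, was at 16.03, 17.17 and 15.60, and at 13.36, 16.19 and 13.47 (-0.17, limma adjusted p = 0.134). MWA+2DG replicate 5 lay within the MWA+PBS range, and Magt1 passed the threshold without that sample. Magt1 holds a stretch of 164 bases that is 95.1% identical to Snrnp200, which reached 39.53 FPKM, so its value and its ratio to Tusc3 could include shared reads.

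Ratios within a sample do not depend on a factor by which all its FPKM values are scaled. The ratio of Tusc3 to Magt1 was 0.356, 0.334 and 0.376 in MWA+PBS versus 0.544, 0.432 and 0.536 in MWA+2DG, a log2 difference of 0.50 with no overlap (exact permutation p = 0.1, two-sided, the smallest that 3 against 3 samples allow). The ratio of Stt3a to Stt3b was 0.402 ± 0.014 and 0.434 ± 0.039 (SD, n = 3) and overlapped (exact permutation p = 0.3). Adjusted over the 3 paralog pairs compared, each p was 0.3, and a p under 0.05 could not be reached in this design. As a description of 2 members called in opposite directions, the ratio of Dpm2 to Ddost was 0.154, 0.165 and 0.137 in MWA+PBS versus 0.263, 0.246 and 0.252 in MWA+2DG, a log2 difference of 0.75. The 2 groups did not overlap in it, but it was chosen after the values of both genes were seen and was not tested.

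**Figure D3:**
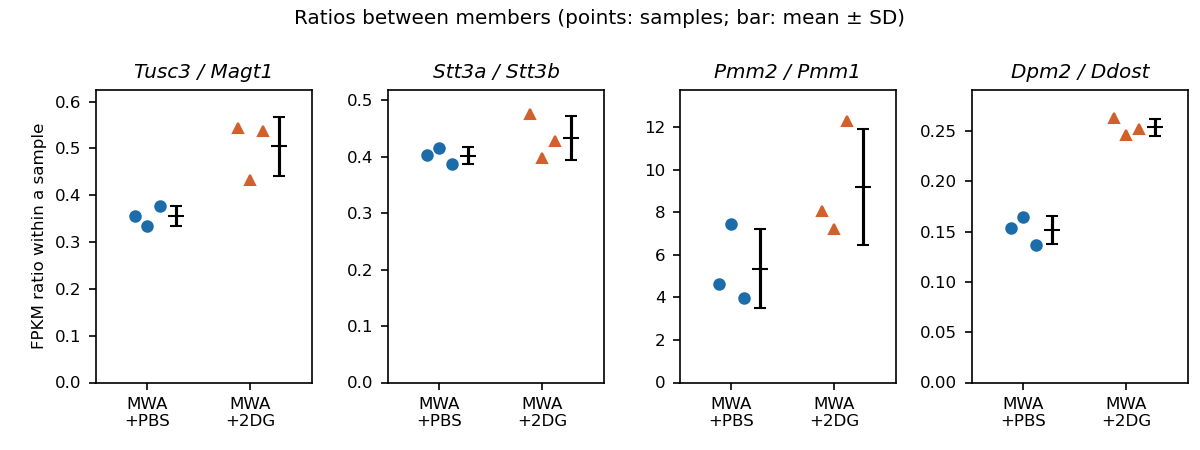
FPKM ratio of 2 members within each sample, on linear axes from 0 (points, samples; bars, mean ± SD, n = 3 per group). The Tusc3 to Magt1 and Dpm2 to Ddost ratios separate the groups, while the Stt3a to Stt3b and Pmm2 to Pmm1 ratios overlap.

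The ER glucosidases act on the chain after transfer. Ganab (ENSMUSG00000071650), the catalytic subunit of glucosidase II, had the highest level of all members, at 44.79, 45.81 and 44.78 FPKM in MWA+PBS versus 49.65, 50.23 and 50.12 in MWA+2DG (0.14 ± 0.04, SE, limma adjusted p = 0.0366). The groups did not overlap, but of the 6 fits with 1 sample left out the call held only in that without MWA+PBS replicate 2. It was also lost with median ratio scaling and with eBayes without a trend, and scaling to the T lineage markers turned it into a lower call at -0.32. Mogs, glucosidase I, was at 22.41 to 25.93 and 23.36 to 26.60 (0.03, limma adjusted p = 0.739).

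The rest of the pathway was read from 5 lists of 57 genes, of which 54 were tested. The genes that lead a list do so by log2FC of FPKM + 1, which understates low genes, and their order can differ by FPKM ratio. In all, 11 were higher (20.4%, against 22.3% of all tested genes) and 14 lower (25.9%, against 17.1%), with a median log2FC of 0.01. The split was 10 and 18 after quantile normalization, 9 and 20 after median ratio scaling and 2 and 41 with T lineage scaling, where, of the genes named below as rising, Slc2a3 kept its call, those of St6gal1, Fpgt and Ngly1 were lost and Ngly1 was negative. In the list that holds dolichol synthesis, Dhdds, a subunit of the dolichol-chain synthase, fell (-0.33). Among 12 tested genes of the ER lectin cycle, 2 rose, led by the cytosolic deglycosylase Ngly1 (0.30), and 4 fell, led by calnexin, Canx (-0.36). Among 17 tested Golgi genes, 5 rose and 5 fell, against 0 and 11 with T lineage scaling. St6gal1, which adds terminal sialic acid, had the highest log2FC of FPKM + 1 (0.65) and Fut8, the core fucosyltransferase, the lowest (-0.65). Of 12 tested enzymes of other nucleotide sugars, Fpgt of fucose salvage rose (0.49) and 2 fell, led by Renbp (-1.11). For hexose entry, 2 of 6 rose and 2 fell, with the glucose transporter Slc2a3 at 0.83 and hexokinase Hk2 at -0.59.

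Beside the 4 lower and 1 higher OST genes, a list of ER chaperones and ER stress genes was read. Of its 14 genes, which include the transcription factors Xbp1, Atf6 and Ddit3, 11 fell and none rose, with a median of -0.40, and 11 to 13 fell under the other scalings. The 11 that fell on the deposited scale were 78.6% of the list, against 17.1% of all tested genes. Hspa5 (BiP) went from 128.38 to 145.27 FPKM in MWA+PBS to 78.23 to 82.05 in MWA+2DG (log2FC -0.75), Xbp1, a transcription factor of the unfolded protein response, changed by -0.53, and Sdf2l1 had the lowest log2FC at -0.94. Of 19 proliferation genes, 18 fell (94.7%, median -0.76), led by Aurkb at -1.05. The lower macrophage and higher neutrophil marker sums given above moved with the same groups, as did the plasma cell marker Jchain (mean 62.2 against 24.7 FPKM), while 2 other plasma cell markers rose, and their part in the OST, ER chaperone and stress gene, and nucleotide sugar values was not tested.

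**Figure D4:**
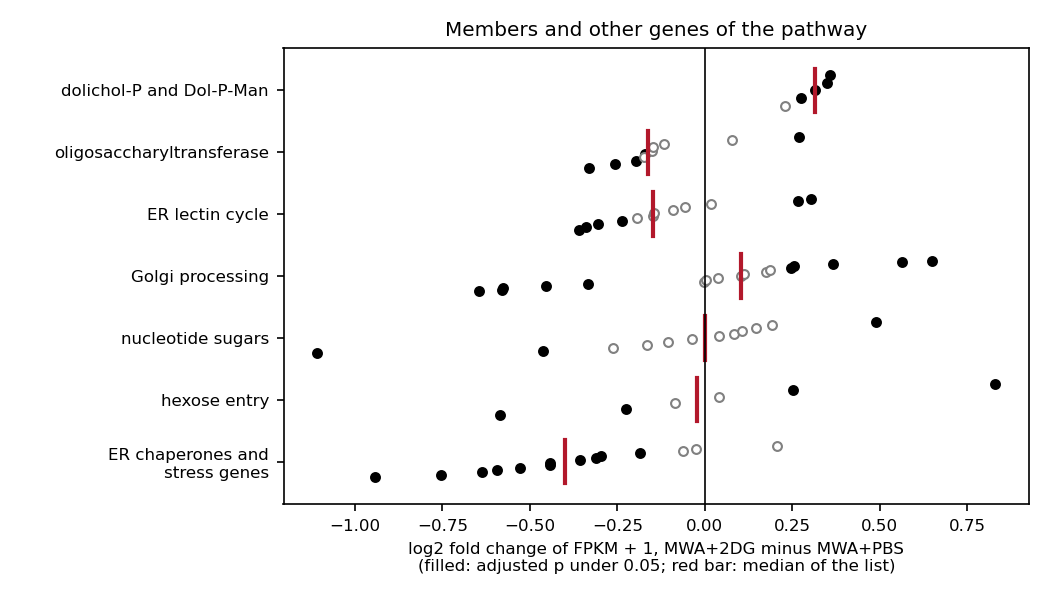
Log2 fold change of FPKM + 1 (MWA+2DG minus MWA+PBS) of each tested gene in 2 member steps, 4 lists of other pathway genes and the ER chaperone and stress genes (filled, adjusted p under 0.05; red bar, median). The dolichol-phosphate-mannose genes lie to the right of 0 and most OST, ER chaperone and stress genes to the left, while the Golgi list spreads to both sides.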

How the data were processed

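Per the submitters' processing notes, reads were processed with cutadapt 1.9, HISAT2 2.0.4, UMI-tools and StringTie 1.3.4d on mm9, and the study's methods also name fastp and ballgown. Neither the annotation nor any use of strand in the counting was stated in those sources. The authors deposited FPKM per gene, scaled by transcript length and mapped fragments. FPKM holds no read counts, so no count test was run and whether replicates differ beyond sampling noise could not be tested. Symbols came from GENCODE M21 for 28689 of 28773 IDs. log2(FPKM + 1) of the 12444 genes with a mean FPKM of at least 1 was fitted with limma 3.58.1 in R 4.3.3 (lmFit, eBayes with trend, two-sided, no covariates), MWA+2DG minus MWA+PBS, and p-values were Benjamini-Hochberg adjusted over all tested genes. The pseudocount understates changes of low genes. The fit was tested on simulated data. Ratios were tested by exact permutation. Other settings were a pseudocount of 0.1, no filter, a mean FPKM of at least 5, quantile, median ratio and T lineage scaling, no trend, arrayWeights and each sample left out. Exon overlaps came from GENCODE M21 and near-copies from BLAST 2.17.0. Per-sample values are given for members past the threshold or under the filter, and the other lists name the called gene with the largest rise and fall, Hspa5 and Xbp1; 1 such gene is not reported here. The members and the 22 lists were chosen with earlier results of these data known.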

Additional observations from a re-analysis of the deposited data

How the results depend on the processing

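The count of members past the adjusted threshold, 15, was 12 to 18 in 7 of the 8 other settings and 26 with T lineage scaling, and 6 to 13 with 1 sample left out. The count by the study's rule, 11, was 21 with T lineage scaling, 8 to 12 in the other 7 settings and 9 to 14 with 1 sample left out. Over all genes, 4907 adjusted calls became 2951 with a mean FPKM of at least 5, where fewer genes were tested, and 8519 with T lineage scaling, and 4752 calls by the study's rule became 2562 and 8101. With 1 sample left out, these counts were 3706 to 5195 and 4544 to 5069. T lineage scaling turned these log2 fold changes negative: Mpi (-0.25), Pmm2 (-0.0357), Gmppa (-0.21), Gmppb (-0.36), Gfpt1 (-0.26), Pgm3 (-0.24), Dolk (-0.0955), Dpm1 (-0.000653), Dpm2 (-0.0593), Dpm3 (-0.0927), Mpdu1 (-0.12), Alg1 (-0.21), Alg2 (-0.0263), Alg11 (-0.18), Alg3 (-0.19), Alg9 (-0.35), Alg12 (-0.14), Alg5 (-0.24), Alg10b (-0.40), Ostc (-0.36), Tusc3 (-0.14), Mogs (-0.42) and Ganab (-0.32). The shift follows from the construction of that scaling, since its 12 markers were higher in MWA+2DG. Small values also changed sign elsewhere: Gmppb with quantile normalization (-0.00624), Gmppb (-0.0305), Alg9 (-0.0323), Alg10b (-0.00954) and Mogs (-0.0142) with median ratio scaling, and Gmppb (-0.0217) and Mogs (-0.00971) with arrayWeights. With 1 sample left out, Gmppb ranged from -0.0135 to 0.0401, Gnpnat1 from -0.484 to 0.00751, Alg9 from -0.0489 to 0.0603, Alg10b from -0.0132 to 0.121, Ostc from -0.0151 to 0.192 and Mogs from -0.0161 to 0.0853, none of which passed the threshold with all samples. Of the member fold changes recomputed, 414 kept their direction and their side of the threshold, 46 lost and 19 gained a call in the same direction, and 40 changed direction. The checks of the paralog ratios, chosen after seeing the data, left the log2 difference of Tusc3 to Magt1 at 0.438 to 0.605, of Stt3a to Stt3b at 0.0384 to 0.167 and of Pmm2 to Pmm1 at 0.567 to 1.06 with 1 sample left out. No paired analysis was possible because the 2 groups share no replicate number. Depth is unknown, so no counting error can be given for low members such as Alg6, Alg14 and Gnpnat1.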
